A study of Mus musculus with 2 samples.

Results

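The endothelin and natriuretic peptide systems were followed through 10 genes, Edn1, Edn3, Ednra, Ednrb, Ece1, Nppa, Nppb, Npr1, Npr2 and Npr3, out of 29273 gene names on the array. All gene probes that carried one of these names were used, which gave 18 of 41174 probes. The genes were chosen by name. Of the 10 genes, 4 had 1 probe and 6 had several, up to 3.

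Both RNA pools came from apoE-/- mice aged 16 weeks. Such mice have no apolipoprotein E and their arteries form plaques. Each pool joined aortic RNA of the same 6 mice, 3 males and 3 females, and no wild-type group was compared. The arch pool came from the atherosclerosis-prone segment (root, arch and the first 2 mm of thoracic aorta) and the thoracic pool from the resistant 6 mm that follow. Detergent (triton X-100) had been run through the vessels to strip their endothelium, since smooth muscle was the tissue of interest. Each of 2 oligonucleotide arrays received both pools. The thoracic pool was in Cy5 and the arch pool in Cy3 on array 1, and the dyes were exchanged on array 2. As both arrays measure the same pools, they are 1 replicate. Every ± is their SD (n = 2 arrays), which holds technical spread alone, and without a spread over mice no p-value could be had. Ratios are log2 of arch over thoracic, and signals are log2 of normalized brightness, comparable within a probe only.

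Endothelin-1 is a constricting peptide that endothelial cells secrete, and Edn3 encodes a related peptide. Endothelin-converting enzyme 1 cuts their inactive precursors to the active form. The type A receptor on smooth muscle couples to calcium release and constriction, while the type B receptor, on endothelium and other cells, also relaxes vessels and clears the peptide. Atrial and B-type natriuretic peptides, the products of Nppa and Nppb, are hormones of heart muscle that relax vessels through Npr1, a receptor that makes cyclic GMP. Npr2 is the cyclic GMP-making receptor for C-type natriuretic peptide, and Npr3 binds and removes all 3 peptides.

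Promoters of 3 of the genes are shown because Edn1 had the highest ratio of the 10 genes in the main processing (Npr3 was higher with an offset of 0 and in the deposited log ratio) and because Nppa and Nppb, whose ratios lay near 0, are direct neighbours on chromosome 4. The sequences are the 250 bases before the start site in RefSeq, build GRCm38.p6, 5′ to 3′ on the plus strand, which is the coding strand of all 3 genes. Capitals mark short motifs found by letter. The M-CAT motif was searched as CATTCC, with its reverse complement. One GATA motif was searched as AGATAA. The other GATA motif differs in its first base and was searched as TGATAA. The TATA box was searched as TATAAA.
Edn1, chr13:42301226-42301475: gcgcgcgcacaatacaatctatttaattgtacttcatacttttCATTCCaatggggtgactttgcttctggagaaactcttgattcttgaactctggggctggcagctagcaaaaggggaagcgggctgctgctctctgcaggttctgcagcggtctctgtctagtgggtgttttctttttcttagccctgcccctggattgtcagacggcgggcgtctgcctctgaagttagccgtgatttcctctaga
Nppb, chr4:147985650-147985899: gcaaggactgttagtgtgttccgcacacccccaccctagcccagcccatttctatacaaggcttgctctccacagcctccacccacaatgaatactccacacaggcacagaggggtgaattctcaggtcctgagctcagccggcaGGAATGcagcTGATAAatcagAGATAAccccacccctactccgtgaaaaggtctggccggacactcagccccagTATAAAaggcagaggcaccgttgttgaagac
Nppa, chr4:148000472-148000721: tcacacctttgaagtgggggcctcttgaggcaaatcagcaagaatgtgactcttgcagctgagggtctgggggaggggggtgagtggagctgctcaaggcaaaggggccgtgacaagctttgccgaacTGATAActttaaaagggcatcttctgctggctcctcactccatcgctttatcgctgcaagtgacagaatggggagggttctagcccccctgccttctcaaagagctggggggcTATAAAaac

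The search covered both strands of windows from 250 bases before to 50 after the start, of which the 10 genes had 13 and the whole RefSeq promoter set used here 32851. In Nppb the M-CAT motif, on the minus strand, began at position -105 from the start, both GATA motifs at -95 and -84 and the TATA box at -31. In Nppa a GATA motif began at -122 and the TATA box at -9. The M-CAT motif of Edn1 began at -207. All positions count from the RefSeq start used here. Where transcription starts was not measured, so a motif placed after that start need not lie in the transcript. Edn1 also held a GATA motif on the minus strand at position 9 after the RefSeq start. An AP-1-like motif, TGACTAA, followed at 37, and both are shown here with their flanks.
Edn1 GATA, chr13:42301475-42301498: agccgggtcTTATCTctggctgca
Edn1 AP-1, chr13:42301504-42301525: cctgtgggTGACTAAtcacaca

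These letters are common. The M-CAT motif occurred in 14.7% of all windows and the TATA box in 13.6%. The GATA motif that starts with A occurred in 11.2% and the one that starts with T in 9.05%, while the AP-1-like motif of Edn1 occurred in 2.35%. The AP-1 site TGANTCA, in 7.81% of windows, and the CArG box, in 1.63%, were in no window of the 10 genes. The motifs are matches of letters only, and no binding was measured here.

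None of the 18 probes differed by 2-fold between the pools. The 2-fold rule asked for a mean log2 ratio of 1 or more in size, with each array past 1.5-fold towards the same pool. Over the whole array it was met by 0.373% of 32176 probes towards the arch and 0.127% towards the thoracic pool. At a mean of 1.5-fold with the same direction on both arrays, 3 probes of the 10 genes were higher in the arch, for Edn1, Ece1 and Npr3, and 0 in the thoracic pool, against 1.2% and 0.379% of all probes. Of the 18 ratios, 12 were above 0 and 6 below, and 14 had the same direction on both arrays. Their median was 0.06, beside -0.00 over all probes. The median SD of a probe was 0.07 for these genes and 0.06 for the whole array.

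**Figure D1:**
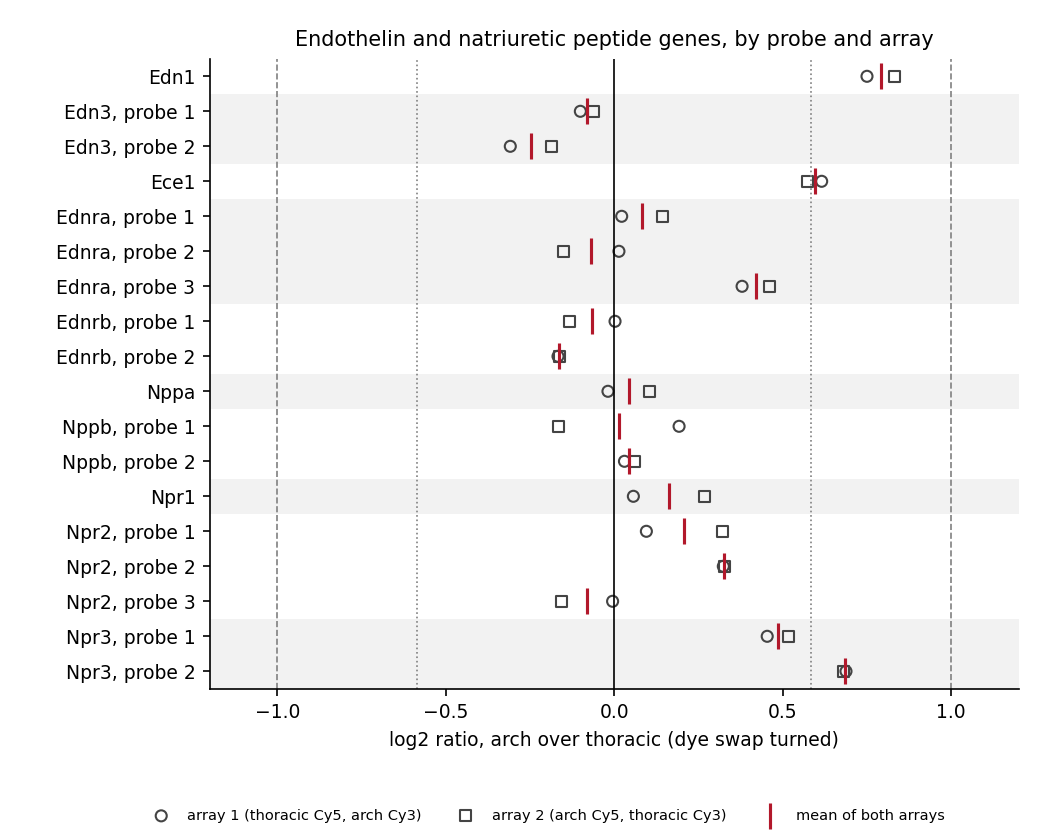
Log2 ratio of arch over thoracic signal (x axis) for each of the 18 probes (y axis), with array 1 as circles, array 2 as squares and their mean as a bar; dotted lines mark 1.5-fold and dashed lines 2-fold. The means of Edn1, Ece1 and probe 2 of Npr3 lie beyond the dotted line to the right, no mean lies beyond it to the left, and no point reaches a dashed line.

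Among the peptides, Edn1 (probe A_51_P115005, transcript NM_010104) was higher in the arch pool. Its log2 signal was 7.90 in the arch and 7.15 in the thoracic pool on array 1, and 7.94 and 7.11 on array 2. The values of each pool lay close together on both arrays, and those of the pools did not overlap. Here and below, non-overlap compares 2 technical measures per pool. Small ratios showed it too, such as that of Edn3 probe 1 (-0.08 ± 0.03). The log2 ratio of Edn1 was 0.75 on array 1 and 0.83 on array 2, a mean of 0.79 ± 0.06 or 1.73-fold. Of all probes compared, 0.662% had a ratio at or above it. In the log ratio that the authors deposited, Edn1 stood at 1.15 ± 0.10, past 2-fold.

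Edn3 lay slightly towards the thoracic pool on its 2 probes. Probe 1 (A_51_P287286) had arch and thoracic log2 signals of 6.44 and 6.54 on array 1 and of 6.44 and 6.51 on array 2, a log2 ratio of -0.08 ± 0.03. Probe 2 (A_52_P20753) had 6.16 and 6.47 on array 1 and 6.54 and 6.72 on array 2, a ratio of -0.25 ± 0.09. On probe 2 the arch signal of array 2 was above the thoracic signal of array 1, so the pools overlapped across arrays, though the arch was the lower on each array. Its deposited log ratio was -0.66 ± 0.24. Both probes were dim: their unprocessed signals were 104.7 to 139.7, and the means of the negative control spots were 77.0 to 97.1.

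Ece1, the converting enzyme (A_52_P635278, NM_199307), was higher in the arch on both arrays. The log2 signals were 10.94 in the arch and 10.32 in the thoracic pool on array 1, and 10.93 and 10.36 on array 2. The pools did not overlap. The log2 ratio was 0.59 ± 0.03, or 1.51-fold, just past the 1.5-fold limit, with 0.62 on array 1 and 0.57 on array 2. With each array centred on its median in place of loess the ratio was 0.55, under that limit. The deposited log ratio was 0.61 ± 0.04.

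The probes of Ednra, the constricting type A receptor, differed from each other. Probe 3 (A_52_P156190, NM_010332), the brightest, gave 9.20 in the arch and 8.82 in the thoracic pool on array 1, and 9.13 and 8.67 on array 2. Its pools did not overlap, and its log2 ratio was 0.42 ± 0.06, or 1.34-fold. Probe 2 (A_51_P457734), designed to the same transcript record, gave 6.27 and 6.25 on array 1 and 6.32 and 6.47 on array 2, a ratio of -0.07 ± 0.12. Probe 1 (A_51_P417991), designed to the cDNA clone AK052292, gave 6.33 and 6.31 and then 6.22 and 6.08, a ratio of 0.08 ± 0.09. Probes 1 and 2 were dim, with unprocessed signals of 94.9 to 122.8, and on neither was the mean larger than the SD between arrays. The difference of Ednra thus rests on probe 3.

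For Ednrb, the type B receptor, the brighter probe 2 (A_52_P577662) lay a little lower in the arch, at 8.20 against 8.37 on both arrays. Its log2 ratio was -0.16 ± 0.00, or 1.12-fold lower. Probe 1 (A_51_P262964) gave 6.98 and 6.97 on array 1 and 6.93 and 7.06 on array 2, a ratio of -0.07 ± 0.10, smaller than the SD between arrays. The receptors' bright probes thus had ratios of opposite sign, each below 1.5-fold.

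**Figure D2:**
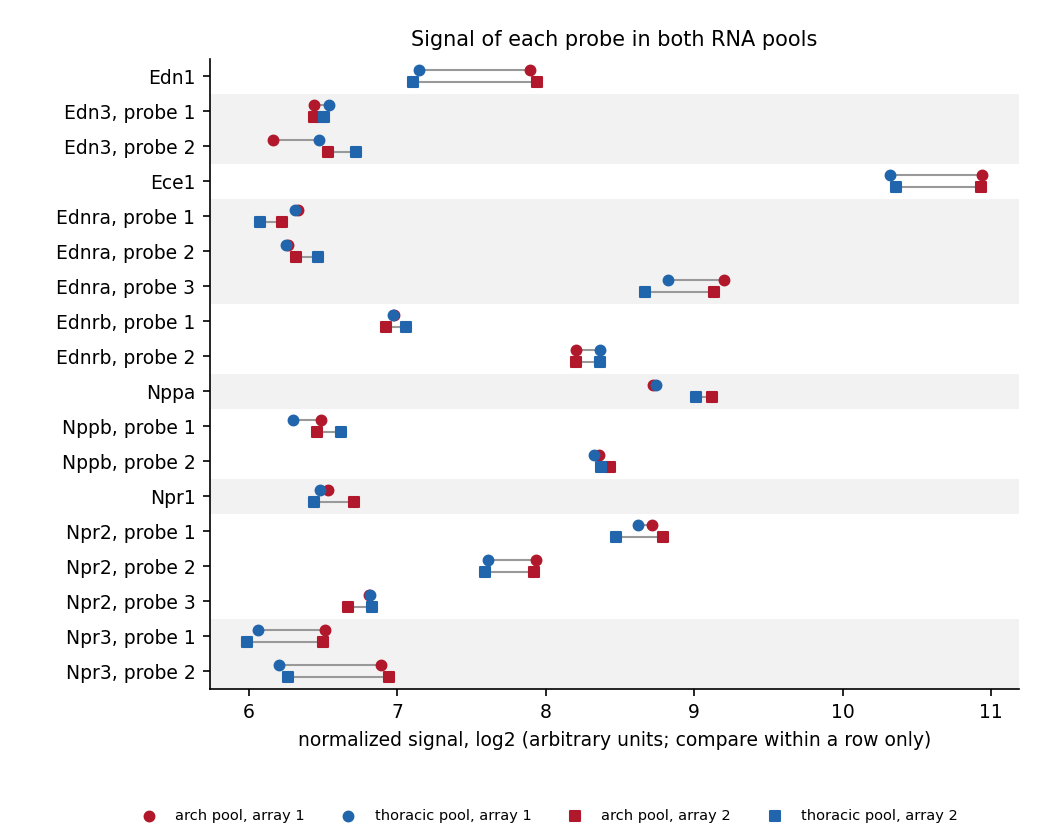
Normalized log2 signal (x axis, arbitrary units) of each probe (y axis) in the arch pool (red) and the thoracic pool (blue), with array 1 as circles, array 2 as squares and a line joining the pools on each array. The gap between colours is widest for Edn1, Ece1 and probe 2 of Npr3, while the symbols of Nppa and of probe 2 of Nppb lie close together on each array; signals compare within a probe only.

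The peptide hormones of heart muscle lay near equality between the pools. Nppa (A_52_P580582, designed to the predicted transcript XM_131840) had a log2 signal of 8.72 in the arch and 8.74 in the thoracic pool on array 1, and of 9.12 and 9.01 on array 2. The pools overlapped across arrays, and the log2 ratio was -0.02 on array 1 and 0.10 on array 2, a mean of 0.04 ± 0.09. Whether this probe reads the current Nppa transcript could not be checked, as its sequence was not used here. Nppb on its brighter probe 2 (A_52_P559955) had 8.36 and 8.33 on array 1 and 8.43 and 8.37 on array 2. That ratio was 0.05 ± 0.02, or 1.03-fold, and the thoracic signal of array 2 lay above the arch signal of array 1. Its dim probe 1 (A_51_P426195) pointed to opposite sides, at 0.19 on array 1 and -0.17 on array 2, a mean of 0.01 ± 0.25.

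Listed genes of the same chromosomal neighbourhood were under 2-fold too. Of 5 genes chosen from those near Nppb and Nppa, which leave out other near genes such as Mfn2, 0 passed the 2-fold rule, which over all genes compared was met by 0.473% towards the arch and 0.145% towards the thoracic pool, and their median was 0.06. The chloride transporter gene Clcn6 stood at -0.18 ± 0.06, Agtrap, which encodes an angiotensin receptor-associated protein, at 0.11 ± 0.01 and the collagen lysyl hydroxylase gene Plod1 at 0.06 ± 0.00. Of 10 transcription factors known to act on natriuretic peptide genes, 0 passed the 2-fold rule, 6 were above 0 and 4 below. The largest of these ratios were those of Hand2 (0.41 ± 0.07), Gata6 (0.34 ± 0.00), Tead1 (0.30 ± 0.13) and Tbx20 (0.26 ± 0.07). Other probes of Tead1 were lower, at 0.10 and 0.10, and those of Gata6 stood at 0.13 and 0.47. Those of Hand2 and Tbx20 were higher, at 0.65 and 0.37. Hand2 and Tbx20 are factors of heart development, Gata6 encodes a GATA factor and Tead1 a factor that binds M-CAT motifs. In the deposited log ratio Hand2 stood at 0.71. The thoracic RNA was well above background for Tbx20 on 1 of 2 arrays, so its ratio is not exact.

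Of the natriuretic peptide receptors, Npr3 had the clearest difference. On probe 2 (A_52_P400798, BC055897) the log2 signal was 6.89 in the arch and 6.20 in the thoracic pool on array 1, and 6.94 and 6.26 on array 2. The pools did not overlap, and the log2 ratio was 0.69 and 0.68, a mean of 0.68 ± 0.01 or 1.61-fold. On probe 1 (A_51_P356883, NM_008728) the arch gave 6.51 and 6.50 and the thoracic pool 6.06 and 5.99. The thoracic RNA was not well above background there on either array, so the ratio of 0.49 ± 0.04, or 1.40-fold, is not exact. It was 0.34 without background subtraction and 1.47 with an offset of 0.

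The size of the Npr3 difference depended on the background step more than that of any other of the 10 genes. Unprocessed signals of probe 2 were 149.2 and 151.7 in the arch and 96.0 and 113.9 in the thoracic pool. The negative control spots of the thoracic channels averaged 77.0 on array 1 and 97.1 on array 2. With an added offset of 0 instead of 50 the log2 ratio of probe 2 became 1.50, and without background subtraction 0.50. The deposited log ratio of probe 2 was 1.54 ± 0.24. The direction of probe 2 was the same in all 8 alternative settings, some of which repeat the main or deposited values or hold 1 array alone. Probe 1 met the brightness filter through the arch RNA alone, so its direction lends no support.

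The receptors that make cyclic GMP differed less. Npr1, the receptor for Nppa and Nppb peptides (A_51_P182693), gave 6.54 in the arch and 6.48 in the thoracic pool on array 1, and 6.71 and 6.44 on array 2. Its ratio was 0.16 ± 0.15, about the size of the SD between arrays. This probe was dim, with unprocessed signals of 111.0 to 129.8. The Npr1 ratio was 0.35 with an offset of 0 and 0.39 in the deposited log ratio. Npr2 on its brightest probe 1 (A_51_P518940) gave 8.71 and 8.62 on array 1 and 8.79 and 8.47 on array 2, a ratio of 0.21 ± 0.16. Probe 2 of Npr2 (A_52_P489373) gave 7.94 and 7.61 and then 7.92 and 7.59, with 0.33 ± 0.00 or 1.25-fold. The dim probe 3 (A_52_P565549) gave -0.08 ± 0.11. The Npr2 probes thus disagreed in sign, and the 2 brighter ones lay on the arch side on both arrays.

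**Figure D3:**
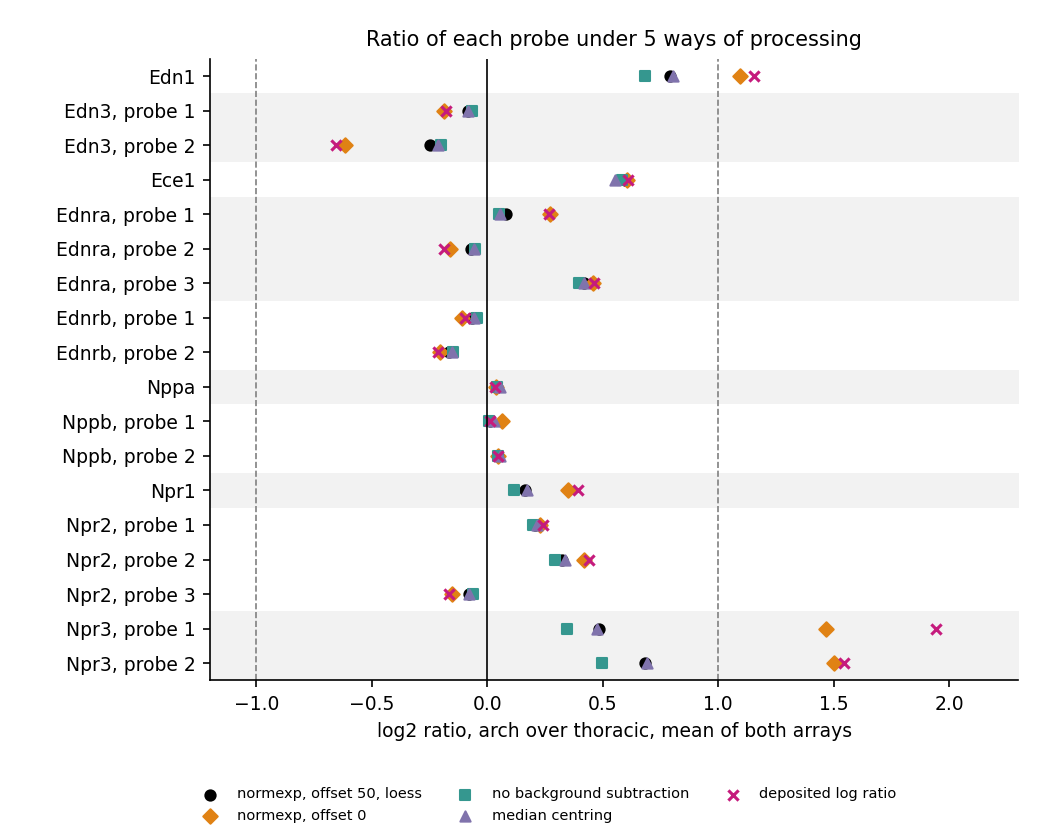
Mean log2 ratio of arch over thoracic (x axis) of each probe (y axis) under 5 ways of processing, with dashed lines at 2-fold. Edn1 and both Npr3 probes pass the dashed line with an offset of 0 and in the deposited log ratio, and lie below it under the other settings drawn; points of probe 1 of Npr3 are not exact, as its thoracic RNA was not well above background; the symbols of Ece1, of Nppa and of probe 2 of Nppb lie close together.

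In the deposited log ratio, 3 of the 18 probes were past the 2-fold rule towards the arch (Edn1 and both of Npr3) and 0 towards the thoracic pool. Probe 1 of Npr3 met the brightness filter through the arch RNA alone and lends no support to this count. Among all probes the same rule was met by 0.932% and 0.298%.

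Other genes of the pathways also lay under 2-fold. Of 13 further peptides, converting enzymes and peptide-clearing enzymes, 0 passed the 2-fold rule in either direction, 6 were above 0 and 7 below, and the median was -0.02, beside -0.01 over all 22811 genes compared. Dpp4, a peptidase of the cell surface that trims B-type natriuretic peptide, stood at 0.84 ± 0.04 or 1.79-fold, with its 2 other probes at 0.16 and 0.76. Cma1, a mast cell chymase gene, stood at -0.25 ± 0.08. Corin, the protease that activates atrial natriuretic peptide, stood at 0.15 ± 0.07, a ratio that is not exact, as its thoracic RNA was well above background on 1 of 2 arrays. Ece2, a second endothelin-converting enzyme, stood at -0.14 ± 0.14, within the spread between arrays.

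Of 19 genes that carry the endothelin receptor signal, 0 passed the 2-fold rule, 15 were above 0 and 4 below, with a median of 0.12. The 4 farthest from 0 all lay on the arch side. Itpr3, an inositol trisphosphate receptor, stood at 0.62 ± 0.06, its relative Itpr2 at 0.38 ± 0.01 and Plcb1, a phospholipase that makes inositol trisphosphate, at 0.50 ± 0.08. Arhgef12, an activator of RhoA, stood at 0.35 ± 0.14. Other probes of these genes were lower, between -0.00 and 0.25 for Itpr2, between -0.02 and 0.33 for Plcb1 and at 0.04 and 0.15 for Arhgef12, and Itpr3 had no other probe.

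Of 14 genes of cyclic GMP formation, action and breakdown, Npr1 and Npr2 included, 13 were compared and Prkg2 was not, as no probe of it met the brightness filter. Of these, 0 passed the 2-fold rule, 6 were above 0 and 7 below, with a median of -0.03. Both main subunits of the nitric oxide-activated guanylyl cyclase lay on opposite sides: Gucy1a1 stood at 0.42 ± 0.05 and Gucy1b1 at -0.29 ± 0.03, and their other probes lay on the same sides. The cyclic GMP phosphodiesterase genes Pde9a and Pde5a stood at 0.21 ± 0.01 and 0.21 ± 0.14.

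Markers of several cell types were higher in the arch pool, and their values stand here beside those of the 10 genes. In a bulk sample, fewer cells of a type and less RNA per cell cannot be told apart. All 11 smooth muscle markers were detected in both pools, with Acta2, Tagln and Myl9 saturated, 0 past the 2-fold rule and a median of 0.19. That median changed sign with median centring or with array 2 alone, and was 0.13 with saturated probes left out. Acta2 and Tagln stood at 0.79 on array 1 and -0.29 on array 2. Myl9, whose mean ratio is the list median, stood at 0.68 and -0.29. Of the list, 9 ratios were above 0, those of the saturated genes included, and 2 below. Actg2 (0.29 ± 0.03), Smtn (0.27 ± 0.04) and Mylk (0.27 ± 0.10) were the highest unsaturated ones, while Synpo2 stood at -0.23 ± 0.12, Des at -0.06 ± 0.10 and Lmod1 at 0.00 ± 0.02. Other probes of Acta2 lay between -0.40 and 0.28.

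Endothelial markers were detected in spite of the detergent, all 15 with ratios above 0 on the brightest probe and a median of 0.36. Other probes of Cdh5, Erg and Vwf stood at -0.02, 0.11 and 0.68. With the median over the probes of each gene, the list median was 0.27. Their summed signal was 4363 and 4289 in the arch and 3056 and 3024 in the thoracic pool, on arrays 1 and 2. The VEGF receptor gene Kdr met the 2-fold rule at 1.24 ± 0.04, and Vwf stood at 0.87 ± 0.04, Emcn at 0.78 ± 0.03 and Ptprb at 0.71 ± 0.11. The part of endothelial RNA in the Edn1, Ece1 and Npr3 results was not tested.

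Of 18 heart muscle markers, 6 passed the 2-fold rule towards the arch and 0 towards the thoracic pool, with 12 ratios above 0, 6 below and a median of 0.28. The atrial light chain gene Myl7 stood at 3.65 ± 0.12 or 12.5-fold, the troponin gene Tnnt2 at 2.32 ± 0.13, the calcium pump regulator gene Sln at 2.20 ± 0.07 and Tnni3 at 1.41 ± 0.03. A second probe of Sln stood at -0.01. The 6 below 0 were Myl3 (-0.16 ± 0.09), Ryr2 (-0.14 ± 0.06), Ttn (-0.07 ± 0.12), Hcn4 (-0.06 ± 0.04), Myh6 (-0.05 ± 0.15) and Nkx2-5 (-0.03 ± 0.12), and were chosen for naming after their values were seen. Other probes of Myh6 stood at 0.30 and 0.31, that of Myl3 at 0.05 and those of Ttn between -0.03 and 0.14. Those of Ryr2 and Hcn4 stood at -0.02 and -0.03, and Nkx2-5 had no other probe. The summed signal of the list was 29511 and 32242 in the arch and 24069 and 22293 in the thoracic pool. Nppa and Nppb, both heart muscle products, stood at 0.04 and 0.05. Both ratios lay below the median of the list and above its 6 negative ratios. The list ran from -0.16 to 3.65, too wide a range to tell whether the peptides follow it.

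The remaining lists varied. All 8 mesothelial markers passed the 2-fold rule towards the arch, with a median of 1.43 and the highest ratios in Gpm6a (1.83 ± 0.00), Upk3b (1.79 ± 0.04), Lrrn4 (1.64 ± 0.05) and Msln (1.44 ± 0.05). Their summed signal was 8886 and 8483 in the arch and 3164 and 3098 in the thoracic pool. Of 11 macrophage markers, 5 passed towards the arch, led by Cd5l (4.09 ± 0.13) and Gpnmb (2.34 ± 0.14), with a median of 0.51. In that list 9 ratios were above 0 and 2 below, those of Cd14 (-0.14 ± 0.06) and Adgre1 (-0.06 ± 0.01), and Lyz2 was saturated. Of 10 adventitial fibroblast markers, Lum alone passed, at 1.05 ± 0.01, and all 10 were above 0 on the mean of both arrays, with a median of 0.42. Dcn and Col3a1 were saturated, and Dcn stood at 0.77 on array 1 and -0.29 on array 2. Other probes of Dcn and Scara5 stood at -0.07 and -0.21. Of 12 adipocyte and brown fat markers, Dio2 alone passed, at 1.12 ± 0.03, with 6 ratios above 0, 6 below and a median of -0.02. The brown fat genes Cox8b, Cidea and Ucp1 stood at 0.61 ± 0.02, 0.54 ± 0.03 and 0.53 ± 0.03, and the adipocyte genes Retn, Cfd, Cidec and Adipoq at -0.47 ± 0.15, -0.35 ± 0.14, -0.20 ± 0.05 and -0.16 ± 0.04. None of the 6 melanocyte markers compared (median -0.00; Mlana -0.62 ± 0.16) and of the 9 Schwann cell and nerve markers (median 0.04) passed. In the latter list Mbp stood at 0.55 ± 0.01 and Uchl1 at 0.48 ± 0.01, while Gap43 stood at -0.38 ± 0.06 and S100b at -0.35 ± 0.11. In the deposited log ratio Gap43 was at -1.05, and 1 gene of the list passed the 2-fold rule towards the thoracic pool. Several medians near 0 changed sign with the processing: those of the cyclic GMP and the adipocyte lists did so in 5 alternative settings each, that of the melanocyte list in 2 and those of the Schwann cell list and of the further peptides and enzymes in 1 each. The part of any of these lists in the ratios of the 10 genes was not tested.

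**Figure D4:**
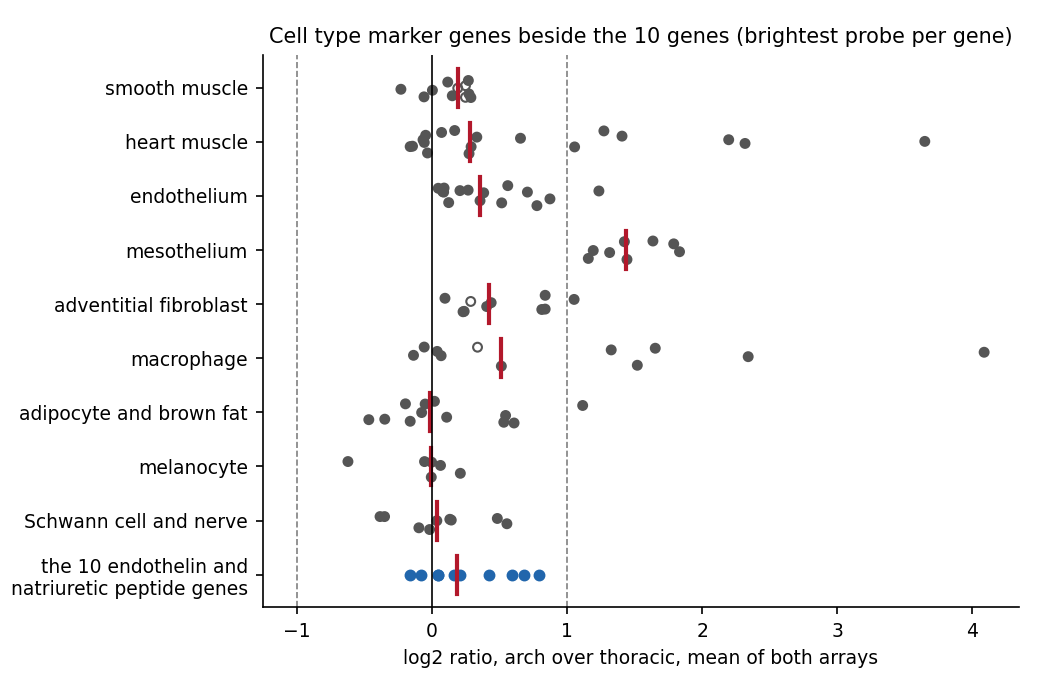
Log2 ratio of arch over thoracic (x axis, mean of both arrays) for each marker gene of 9 cell types and for the 10 endothelin and natriuretic peptide genes (rows), 1 point per gene; open points are saturated, red bars are medians and dashed lines mark 2-fold. All 8 mesothelial points lie past 2-fold and all 15 endothelial points lie right of 0, while the points of the 10 genes all lie between the dashed lines.

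On the arrays as a whole, 76.5% to 82.6% of 41534 gene spots were well above background in each RNA. Of the 18 probes, 17 were well above background in both RNAs throughout, probe 1 of Npr3 in the arch RNA alone, and 0 were saturated. The same 2-fold rule applied to red over green without turning the dyes was met by 0 of the 18 probes. No log2 ratio of these probes reached 1 in size on either array, so they could not meet it. The count therefore tells nothing about dye effects on them.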

How the data were processed

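Both arrays (Agilent mouse whole-genome, two-colour) held the same 2 RNA pools in opposite dyes. Per the labels' protocols, 12 µl of RNA extract per mouse were pooled, RNA integrity numbers were 7.5 to 7.7 and 5 µg of RNA from in vitro transcription were labelled. The deposited scanner tables give each spot's mean signal and local background as intensity values, not normalized, per the file headers. Agilent Feature Extraction made them, in version 8.1.1.1 by the headers and 9.1.1.1 by the submitters' processing notes. The deposited log10 ratio of red over green uses background-subtracted, dye-normalized signals, and was changed to log2 and turned to arch over thoracic. The deposited table of the whole series repeats it (35 and 38 of 41174 features differed by over 0.001 on arrays 1 and 2). The deposited p-value per spot covers 1 array only and was not used as a result.

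With limma 3.58.1 in R 4.3.3, normexp (offset 50) corrected the background, which pulls ratios of dim probes towards 0. Loess then normalized each array, giving control spots a weight of 0. Flagged outlier spots (8 on array 1 and 5 on array 2) were dropped, spots of a probe averaged and the dye swap turned. Channel signals were scaled by Aquantile. Probes were compared when both arrays showed 1 RNA or both well above background, and the brightest stood for its gene in gene lists. All probes of the 10 genes were described, and up to 4 genes of each list, those past the 2-fold rule first and then by size. One gene that this rule selects is not reported here. Other list members were named after their values were seen. The genes and lists were chosen with earlier results of these data known. The steps were tested on simulated data. Alternatives covered background, normalization, filters, flagged and saturated spots, single arrays, deposited values and the size rule.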

Additional observations from a re-analysis of the deposited data

How the results depend on the processing

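Of 162 ratios of the 18 probes under alternative settings, 158 kept their sign and 124 moved by less than the SD between arrays. The other 4 changed sign when 1 array stood alone: without array 2, probe 2 of Ednra stood at 0.01, probe 1 of Ednrb at 0.00 and Nppa at -0.02, and without array 1, probe 1 of Nppb stood at -0.17. Much of the 124 was fixed in advance, so that count is no measure of stability. A ratio from 1 array always lies within that SD of the mean. Keeping flagged spots or leaving out saturated probes changed no ratio of these probes, and the deposited whole-series table repeats the deposited log ratio. Counts past the 2-fold rule moved as follows. With an offset of 0, 3 of the 18 probes (1 of them the Npr3 probe that is not above background in the thoracic RNA) passed towards the arch, with 243 of all probes towards the arch and 79 towards the thoracic pool, in place of 120 and 41. In the deposited log ratio and in the deposited whole-series table alike the counts were 3, 300 and 96. Under the 1.5-fold rule they were 3, 386 and 122. Of the 18 probes, 3 were at least 1.5-fold higher in the arch and 0 in the thoracic pool; without background subtraction only Edn1 was 1.5-fold higher in the arch, a count of 1, and with an offset of 0 or deposited values 1 probe, of Edn3, was 1.5-fold higher in the thoracic pool. Leaving out 1 array gave 2 to 3 such arch probes and, for all probes under the 2-fold rule, 114 to 127 towards the arch and 39 to 41 towards the thoracic pool. Of 182 list medians under alternative settings, 166 kept their sign. The deposited processed signals lie on another scale, so every channel level moved. Dim probes near the negative control spots and the single pool per segment limit the precision. The ratio of each array already sets the 2 segments of the same mice against each other. No paired test over mice was possible, because both arrays hold the same 2 pools.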
